A study of Mus musculus with 8 samples.

Results

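The peroxiredoxins (Prdx1 to Prdx6) and the cytosolic thioredoxin system (Txn1, Txnrd1, Srxn1 and Txnip) are 10 genes, picked by symbol from a table of 56465 features. Each symbol matched 1 row of that table, and all 10 genes passed the filter (a mean of 10 or more normalized reads), as did 19798 features in all. Polyadenylated RNA was sequenced from whole retinas of mice labelled C57Bl/6J, all collected 4 days after a detachment made with 10 µl of sodium hyaluronate placed under the retina. The 4 TG retinas (replicates 2, 5, 6 and 8) came from mice that express human transferrin, the iron carrier of plasma, and the 4 WT retinas (replicates 3, 4, 5 and 7) from mice without it. The TG group held 2 males and 2 females, with 2 right and 2 left eyes, and the WT group 3 males and 1 female, with 3 right eyes and 1 left eye. No source used here gives the age of the mice, the promoter of the transgene or the number of transgenic lines, and undetached retinas were not analysed here. The labels do not say that each retina came from a different mouse. The p-values therefore reflect sample-to-sample spread alone, part of which may be technical. The series title gives the question as protection by transferrin in the detached retina, and the 1 comparison is TG against WT.

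Libraries held 61535690 to 70540242 reads in TG and 68433927 to 75866423 reads in WT. Mitochondrially encoded features took 20.4% to 22.3% of the reads in TG and 21.9% to 27.5% in WT. Markers of rods, the most numerous cells of the mouse retina, were present in every library, with a summed level of 1604260 to 2651400 normalized reads in TG and 1965150 to 2468400 in WT. Normalized reads are read counts divided by 1 size factor per library. Pigment epithelium markers summed to 116047 in WT 3 against 20839 to 56787 in the other 7 libraries, and lens markers to 19301 in TG 6 and 23276 in WT 3 against 48.6 to 4958 in the other 6. The log2 fold changes of the 10 genes are therefore also given without those 2 libraries.

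Peroxiredoxins are thiol peroxidases. A cysteine of the enzyme is oxidised by hydrogen peroxide or a lipid peroxide and must be reduced again before the next round. In the typical 2-Cys members (Prdx1, Prdx2, Prdx3 and Prdx4) and in the atypical Prdx5 the reductant is thioredoxin, which thioredoxin reductase recharges with electrons from NADPH, while Prdx6, the 1-Cys member, is recharged through glutathione. Photoreceptors consume much oxygen and are rich in polyunsaturated lipids, and iron can turn hydrogen peroxide into hydroxyl radicals, which places these enzymes next to iron handling in the retina.

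Several of these genes are known targets of the transcription factor Nrf2, which binds antioxidant response elements. The core of that element, TGACNNNGC, was searched on both strands in the window from 250 bases before to 50 bases after each annotated start (RefSeq sequences, GRCm38.p6). The table held 11 such windows for 9 of the 10 genes and none for Prdx6. The core was found in 3 windows, those of Prdx1, Srxn1 and the second of the 3 starts of Txnrd1, against 12.4% of all 32851 windows. The 3 stretches are shown because these are the genes of the set with a core in the window, and each is printed on the strand of the gene, with the core, which lies on the opposite strand, in capitals.
Prdx1: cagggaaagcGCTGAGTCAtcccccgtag
Srxn1: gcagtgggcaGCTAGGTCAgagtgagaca
Txnrd1: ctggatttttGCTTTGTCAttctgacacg
The Prdx1 stretch is chr4:116685456-116685484, the Srxn1 stretch chr2:152105542-152105570 and the Txnrd1 stretch chr10:82859104-82859132, all on the plus strand. The core starts 133 bases before the start site in Prdx1 and 92 bases before it in Txnrd1, and at base 29 after it in Srxn1. An E-box, CACGTG, was in the window of 1 gene, Prdx4, against 7.15% of all windows. Only this exact sequence was searched, so related or composite elements would have been missed. A match is only a match of letters, and no binding was measured.

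No gene of the set passed at an adjusted p under 0.05 (limma). Of the 10, 8 had a log2 fold change above 0 in TG, as 47.8% of all features tested did (limma), with a median of 0.13 against -0.02 over all features. Without WT 3 and TG 6 the number above 0 was 9, and the median was 0.07 without WT 4 and 0.22 without WT 5. Without WT 3 and TG 6 the log2 fold change was 0.35 for Prdx2, 0.31 for Srxn1, 0.11 for Txn1, 0.07 for Txnrd1, 0.03 for Prdx5 and -0.08 for Prdx3, and the values for the other 4 genes stand beside their results. At an unadjusted p under 0.05 there were 3, all higher in TG (Prdx6, Prdx2 and Prdx4), where 2.02% of all features were higher at that level. Called higher over all features was 1 feature, 0.00505% of those tested, and 1 was called lower. Both edgeR and DESeq2 on the recovered reads also called 0 of the 10, with the same number, 3, at an unadjusted p under 0.05. The TG and WT libraries did not overlap for 2 of the 10, Prdx6 and Prdx4, both higher in TG. Of all features tested, 1.36% had no overlap and were higher in TG.

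**Figure D1:**
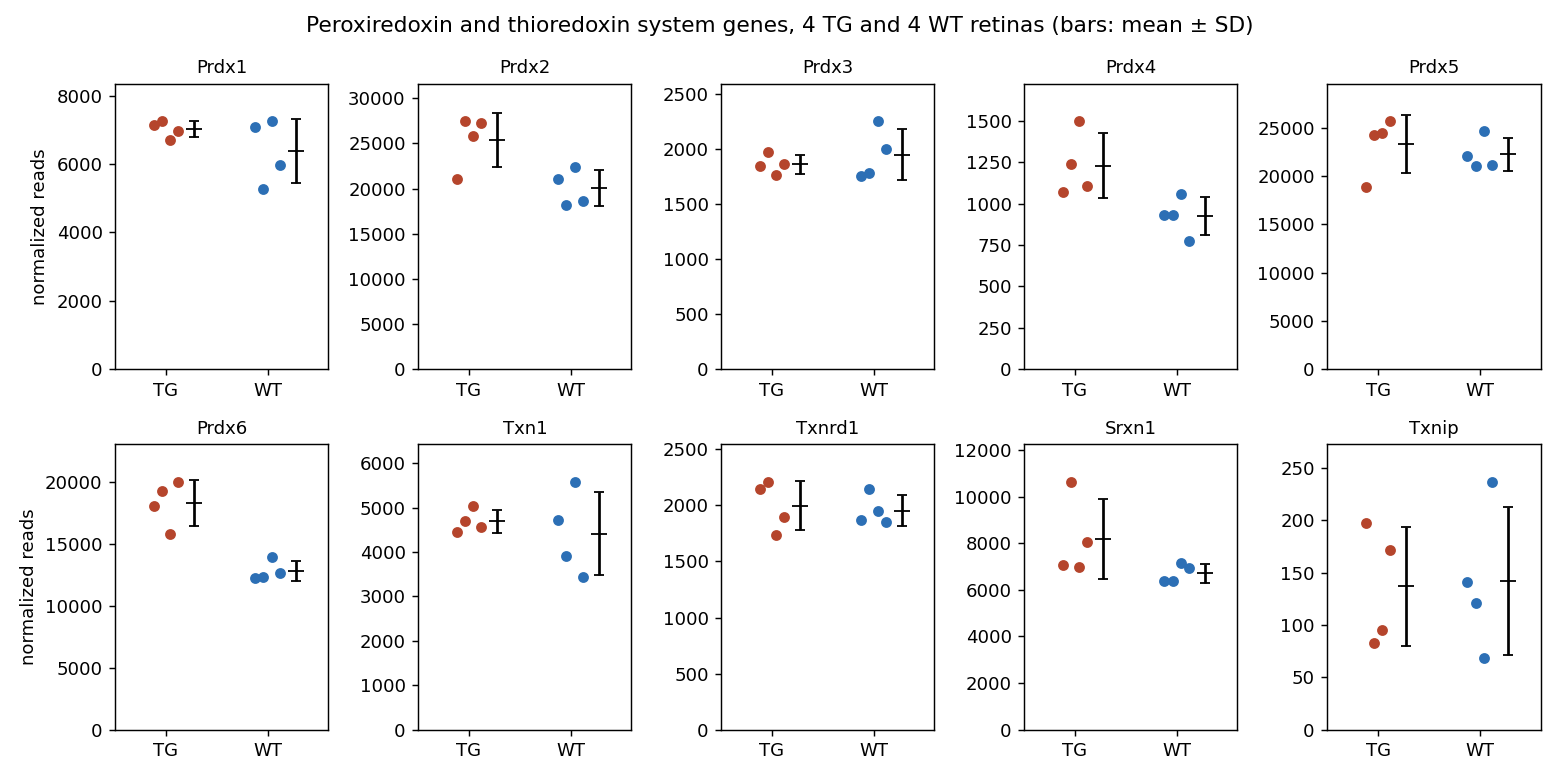
Normalized reads of the 10 genes in each library (points, TG left in red, WT right in blue), with the mean ± SD of the 4 libraries of a group beside them; each vertical axis starts at 0. Prdx6 and Prdx4 show no overlap between the groups, with Prdx6 at 15826 to 20038 in TG and 12273 to 13955 in WT.

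Prdx6 reduces phospholipid hydroperoxides and also carries a phospholipase activity. It had 18089.8, 19316, 15826 and 20038 normalized reads in TG 2, TG 5, TG 6 and TG 8, against 12273, 12316, 13955 and 12647 in WT 3, WT 4, WT 5 and WT 7. All 4 TG libraries lay above all 4 WT libraries, with TG 6 the lowest of TG and WT 5 the highest of WT. The means were 18317 ± 1845 in TG and 12798 ± 789 in WT (SD, n = 4 each). The log2 fold change of 0.51 ± 0.12 (SE), a ratio of 1.43 with a 95% interval from 1.19 to 1.71, did not pass over all features (unadjusted p = 0.00085, adjusted p = 0.918, limma). By p it ranked 14 of 19798. DESeq2 on the recovered reads gave an adjusted p of 0.0559 and edgeR 0.969, so neither passed the threshold. The value was 0.56 without WT 3 and TG 6, and 0.47 to 0.58 without any 1 library.

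Because every TG library lay above every WT library, Prdx6 had to be higher in TG within each sex and each eye. The splits therefore give only the size of the difference. They are also not separate, as WT 7 was both the 1 WT female and the 1 WT left eye. The mean was 18703 normalized reads in the 2 TG males and 12848 in the 3 WT males, a log2 difference of 0.54. It was 17932 in the 2 TG females and 12647 in the 1 WT female, a difference of 0.49. The log2 difference was 0.62 in right eyes and 0.42 in left eyes, where the left eyes again included 1 WT library. Prdx6 is a minus-strand gene of chromosome 1 (bases 161240112 to 161251210, mm10), and no other feature of the table overlaps it. Its copies Prdx6b and Prdx6-ps2 had at most 2 and 0 reads in any library.

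The cytosolic 2-Cys enzymes are Prdx2 and Prdx1. Prdx2, a peroxidase abundant in neurons and red blood cells, had 21032, 27505, 25786 and 27271.5 normalized reads in TG 2, TG 5, TG 6 and TG 8, against 21048, 18195, 22400 and 18562.5 in WT 3, WT 4, WT 5 and WT 7. TG 5, TG 6 and TG 8 lay above every WT library, while TG 2 lay among them. In limma the log2 fold change was 0.34 ± 0.13 (SE; unadjusted p = 0.022, adjusted p = 0.918, limma). The unadjusted p was 0.0595 to 0.0684 without TG 5, TG 8, WT 4 or WT 7 (limma). In males only the log2 fold change was 0.23 (unadjusted p = 0.216, limma). Red blood cell markers summed to 14470 to 27131 normalized reads in TG and 2635 to 39044 in WT, with 2 of 5 markers higher in TG and none at 0, and their part in the Prdx2 values was not tested. Prdx2 (chromosome 8, plus strand, 84969622 to 84974834) shares 2099 bases with Junb in the table, and although the library kit keeps strand, no source says whether the counting used it, so the Prdx2 values are uncertain there. Junb itself had 3835 ± 2677 normalized reads in TG and 3340 ± 452 in WT (SD, n = 4 each), a log2 fold change of -0.03.

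Prdx1, the stress-induced cytosolic enzyme, had 6707 to 7272 normalized reads in TG and 5264 to 7253 in WT. The means were 7031 ± 245 in TG and 6394 ± 946 in WT (SD, n = 4 each). WT 4 and WT 7 lay below all TG libraries, and WT 3 and WT 5 lay within the TG range. This gave a log2 fold change of 0.15 ± 0.13 (SE; 95% interval -0.13 to 0.43; adjusted p = 0.918, limma). It was 0.06 without WT 4 and 0.22 without WT 3 and TG 6. By the coordinates, Prdx1 shares 427 bases with AV051173, and 196 and 431 bases with features that have no symbol. Those features had at most 28, 131 and 0 reads in any library. No source says whether the counting used strand.

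Prdx4 is the peroxiredoxin of the endoplasmic reticulum, where it passes oxidising equivalents to protein folding, and its gene is X-linked. It had 1073, 1241, 1500.5 and 1107 normalized reads in TG 2, TG 5, TG 6 and TG 8, against 932, 934, 1059 and 774 in WT 3, WT 4, WT 5 and WT 7. The groups did not overlap, but TG 2 and WT 5 were separated by little. Its log2 fold change of 0.41 ± 0.17 (SE; unadjusted p = 0.031) did not pass (adjusted p = 0.918, limma). The highest library, TG 6, and the lowest, WT 7, were both from females. The log2 difference was 0.25 between the 2 TG and 3 WT males and 0.73 between the 2 TG females and 1 WT female, and the sex by genotype term was -0.49, male minus female (adjusted p = 0.572, limma). Without WT 3 and TG 6 the log2 fold change was 0.31, and without TG 6 alone it was also 0.31 (unadjusted p = 0.102, limma).

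For the members that work in mitochondria, the 95% intervals spanned 0. Prdx3, a mitochondrial 2-Cys enzyme, had 1764 to 1969 normalized reads in TG and 1749 to 2253 in WT, with WT 5 the highest of all 8. Its log2 fold change was -0.06 ± 0.14 (SE; 95% interval -0.36 to 0.24; adjusted p = 0.971, limma), and 0.014 without WT 5. Prdx5, which works in mitochondria, peroxisomes and the cytosol, had 18888, 24325.5, 24451 and 25763 normalized reads in TG 2, TG 5, TG 6 and TG 8, against 22116, 21035, 24728 and 21227 in WT 3, WT 4, WT 5 and WT 7. TG 2 was the lowest of all libraries and the other 3 TG libraries lay in the upper WT range or above it. With a log2 fold change of 0.06 ± 0.13 (SE; 95% interval -0.22 to 0.34; adjusted p = 0.968, limma), neither direction could be assigned, and the value was -0.075 in males only. Without 1 library it ranged from 0.011 (without TG 8) to 0.16 (without TG 2). Prdx5 overlaps Trmt112 by 380 bases in the table, a gene with 2769 ± 514 normalized reads in TG and 2319 ± 585 in WT (SD, n = 4 each).

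In the cytosolic thioredoxin system (Txn1, Txnrd1, Srxn1 and Txnip), no gene had an unadjusted p under 0.05 (limma). Txn1, cytosolic thioredoxin, had 4446 to 5040 normalized reads in TG and 3442 to 5586 in WT. The 4 TG libraries lay inside the WT range, and the coefficient of variation was 5.45% in TG and 21.3% in WT. Its log2 fold change was 0.11 ± 0.15 (SE; 95% interval -0.22 to 0.44; adjusted p = 0.942, limma), -0.0017 without WT 7 and -0.037 in males only. Txnrd1, the selenoprotein that reduces thioredoxin, had 1740 to 2212 in TG and 1849 to 2146 in WT, a log2 fold change of 0.03 ± 0.14 (SE; 95% interval -0.27 to 0.33; adjusted p = 0.984, limma). The sign of that value turned without TG 2 (-0.0074) or TG 5 (-0.023). For both genes the intervals allow changes of about the size seen in Srxn1. By the coordinates, Txnrd1 shares 1305 bases with Eid3 and 3635 bases with a feature that has no symbol. Those features had at most 22 and 10 reads in any library.

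Srxn1, sulfiredoxin, repairs 2-Cys peroxiredoxins whose cysteine has been overoxidised to a sulfinic acid. It had 7079, 10648, 6995 and 8042 normalized reads in TG 2, TG 5, TG 6 and TG 8, against 6359.7, 6383, 7152 and 6941 in WT 3, WT 4, WT 5 and WT 7. TG 5 and TG 8 lay above all WT libraries, and TG 2 and TG 6 lay within the upper WT range. The resulting log2 fold change was 0.27 ± 0.15 (SE; unadjusted p = 0.088, adjusted p = 0.918, limma), and without TG 5 it was 0.13. TG 5 was also the library with the highest summed microglia and macrophage markers, 44478 normalized reads against 18433 to 29162 in the other TG libraries and 18788 to 26892 in WT. All 10 of those markers were higher in TG and none was at 0, and their part in the Srxn1 value was not tested. Fewer cells of a type and less RNA per cell cannot be told apart in whole retina.

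Txnip, which binds thioredoxin and blocks it and which is induced by glucose, was the lowest and the most variable of the set. It had 198, 82.8, 95.1 and 172 normalized reads in TG 2, TG 5, TG 6 and TG 8, against 141, 121, 68.7 and 237 in WT 3, WT 4, WT 5 and WT 7. Both groups spanned more than a doubling, and the TG values lay inside the WT range. With 65 to 243 reads a library, its counting error is larger than for the other 9 genes. The log2 fold change was -0.01 ± 0.42 (SE; 95% interval -0.92 to 0.89; adjusted p = 0.997, limma), and it was 0.28 without WT 7 and -0.31 without WT 5, and also positive without WT 3 (0.03), TG 5 (0.19) or TG 6 (0.13) and in males only (0.28) or without WT 3 and TG 6 (0.17). By the coordinates, all 3901 bases of Txnip lie inside Gm15441. Gm15441 had 17.4 ± 24.1 normalized reads in TG and 9.34 ± 16.0 in WT (SD, n = 4 each). No source says whether the counting used strand, so the Txnip values are uncertain over the whole gene.

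**Figure D2:**
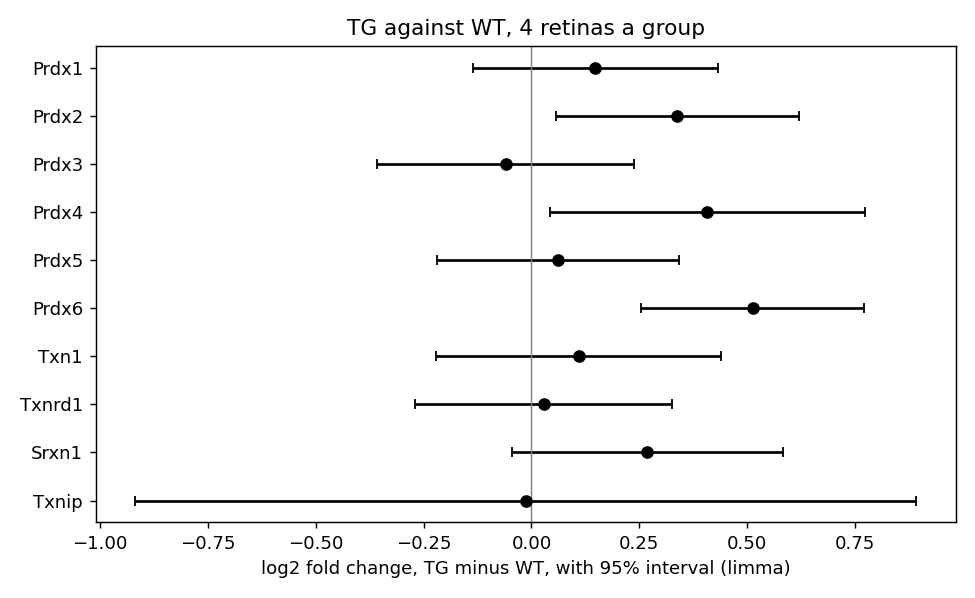
Log2 fold changes, TG minus WT, of the 10 genes (points) with 95% intervals from limma (bars); the vertical line marks 0. The intervals of Prdx6 (0.26 to 0.77), Prdx2 (0.06 to 0.62) and Prdx4 (0.04 to 0.77) lie above 0 before adjustment for 19798 tests, and that of Txnip is the widest.

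Per length of merged exons (GENCODE M21, GRCm38), the order of the levels was close to the same in both genotypes. Prdx5 was the highest, with 16142 ± 2108 normalized reads per kb in TG and 15395 ± 1175 in WT (SD, n = 4 each). Prdx2 followed with 13699 ± 1623 in TG and 10815 ± 1087 in WT, then Prdx6 with 7333 ± 739 in TG and 5123 ± 316 in WT. Txn1 came next with 4462 ± 243 in TG and 4201 ± 894 in WT. The ranges of Prdx5 and Prdx2 overlapped in TG but not in WT, and those of Prdx6 and Txn1 overlapped in WT but not in TG, although the first of each pair was the higher in all 8 libraries. Srxn1 (2913 ± 606 in TG, 2386 ± 142 in WT) and Prdx1 (2764 ± 96.5 in TG, 2513 ± 372 in WT) exchanged places, with Srxn1 the higher in 4 of 8 libraries, and were not separated by their spread. Prdx3 and Prdx4 overlapped in TG, with 1258 ± 57.3 and 1243 ± 196 normalized reads per kb, and not in WT, with 1316 ± 158 and 934 ± 118. Txnrd1 had 490.4 ± 53.7 in TG and 479 ± 33.2 in WT. Txnip stood at 48.4 ± 19.99 in TG and 50.2 ± 24.9 in WT, below all the others in every library. No source states which annotation was counted, so the counted lengths may differ from these. The Txnip level is also uncertain through its overlap with Gm15441.

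The 6 peroxiredoxins together summed to 68081, 81628, 76034 and 83027 normalized reads in TG 2, TG 5, TG 6 and TG 8, against 65211, 59525, 71649 and 61176 in WT 3, WT 4, WT 5 and WT 7. TG 2 lay below WT 5, and the other 3 TG libraries lay above every WT library. TG 5 was the highest library for 4 of the 10 genes, TG 8 for 2 and WT 5 for 2, while WT 3 was the lowest for 3 and WT 4 and WT 7 for 2 each. As a description over the 8 libraries, with no test, the closest pair was Prdx2 and Prdx6 (Pearson's r = 0.81) and the most opposed was Txn1 and Txnip (r = -0.75). All pairs share the same libraries and size factors.

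**Figure D3:**
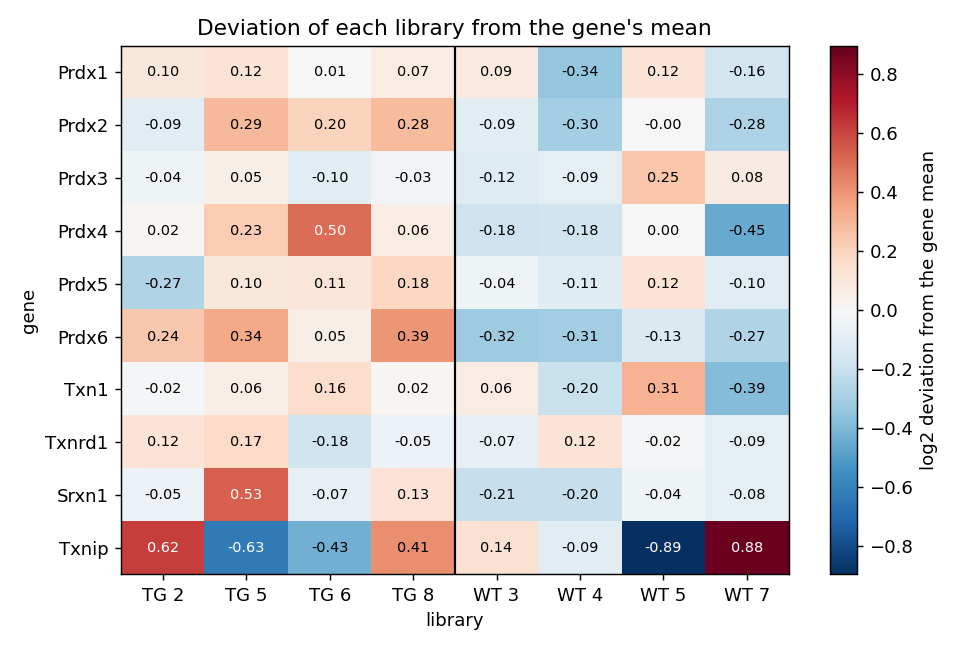
Deviation of log2(normalized reads + 1) in each library from the gene's mean over the 8 libraries (red above, blue below), with TG libraries left of the line and WT libraries right of it. Prdx6 is above its mean in the 4 TG libraries and below it in the 4 WT libraries, and Txnip ranges from -0.89 in WT 5 to 0.88 in WT 7.

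Levels of cell markers moved between libraries as well. Mueller glia markers, summed, were highest in TG 2 (111167), WT 7 (111036) and TG 8 (109552) and lowest in TG 6 (65022), and 6 of 9 were higher in TG. The Mueller sum was 85788 in TG 5, 87599 in WT 3, 73802 in WT 4 and 72867 in WT 5. Astrocyte markers had 0 of 5 higher in TG, with sums of 4128 to 7970 in TG and 5531 to 8433 in WT. Rod markers had 2 of 10 and cone markers 3 of 8 higher in TG, with cone sums of 94368 to 147448 in TG and 105930 to 144385 in WT. At an unadjusted p under 0.05 (limma), 2 rod and 2 cone markers were lower in TG and 0 of either list were higher. Of all 19798 features tested, 400 were higher and 518 lower at that level, and 47.8% had a log2 fold change above 0. All 10 microglia and macrophage markers were higher in TG, 3 of them at an unadjusted p under 0.05 (limma). Their sum was highest in TG 5 (44478) and lowest in TG 8 (18433). No marker of these lists was at 0 in all libraries. The part of cell make-up and of the mitochondrial share in the Prdx6, Prdx2 and Prdx4 values was not tested.

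In the wider pathway, none of 60 measured genes in 5 lists passed (limma), with 34 higher and 26 lower in TG and a median log2 fold change of 0.03. At an unadjusted p under 0.05 (limma), 4 of the 60 were higher and 0 lower. Of all 19798 features tested, 47.8% had a log2 fold change above 0, and 400 were higher and 518 lower at that level. The list of thioredoxin and glutaredoxin system genes, which was not confined to mitochondria, held Txn2, Txnrd2, Txnrd3, Glrx, Glrx2, Glrx3, Glrx5 and Gsr. Of these 8 genes, 7 were higher in TG, with a median of 0.06. Txnrd2, the mitochondrial thioredoxin reductase, had 802 ± 155 normalized reads in TG and 634 ± 121 in WT (SD, n = 4 each), a log2 fold change of 0.34. Glrx3, an iron-sulfur glutaredoxin, stood at -0.23 and Gsr, glutathione reductase, at 0.14. Single libraries moved all 3 values, to 0.22 for Txnrd2 without WT 4, -0.13 for Glrx3 without WT 7 and 0.089 for Gsr without TG 8. In males only Txnrd2 was 0.18 and Glrx3 was -0.13.

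Of 17 further thioredoxin-fold genes, 9 were higher and 8 lower, with a median of 0.01. Txnl4b, a thioredoxin-like protein tied to splicing, had 1871, 2100.1, 1894 and 2052 normalized reads in TG 2, TG 5, TG 6 and TG 8, against 1452, 1588, 1660.3 and 1541 in WT 3, WT 4, WT 5 and WT 7. All TG libraries lay above all WT libraries, and the log2 fold change was 0.34 ± 0.13 (SE; unadjusted p = 0.022, adjusted p = 0.918, limma). Txndc15 stood at -0.27, and at -0.18 without WT 7 and -0.15 in males only. Txnl1 stood at -0.17, and at -0.066 without TG 2 and -0.38 in males only. Among 11 repair proteins and clients of thioredoxin, 4 were higher and 7 lower, with a median of -0.10. Rrm2, the ribonucleotide reductase subunit of dividing cells, stood at 1.06 ± 0.62 (SE), and at 0.53 without WT 7. The methionine sulfoxide reductases Msra and Msrb2 stood at 0.33 and -0.20. Msra was 0.52 without WT 7 and 0.62 in males only, and Msrb2 was -0.12 without TG 2.

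Of 8 relatives and regulators of Txnip, 4 were higher and 4 lower, with a median of -0.03. Its fellow arrestin-domain genes Arrdc4 and Arrdc2 stood at 0.54 and 0.37. Arrdc4 was 0.35 without WT 3 and TG 6, and Arrdc2 was 0.24 without WT 5, 0.56 without WT 4 and 0.18 in males only. Mlxipl, a glucose-responsive transcription factor, stood at -0.80 ± 0.91 (SE), which became 0.056 without TG 8, -1.55 without TG 5 and -0.074 in males only. The list of Nrf2 targets and suppliers of NADPH also held Nfe2l2, the gene of Nrf2, and its regulator Keap1. Of the 16 genes in that list, 10 were higher and 6 lower, with a median of 0.09. Hmox1 (log2 fold change 1.66), Slc7a11 (1.02) and Tkt, the transketolase of the pentose phosphate pathway (0.40 ± 0.18, SE), had an unadjusted p under 0.05 and an adjusted p of 0.918 each (limma). Tkt had 20949 ± 4686 normalized reads in TG and 15866 ± 2928 in WT (SD, n = 4 each), with TG 5 (18272) and TG 6 (17251) inside the WT range of 11679.6 to 18477. Its log2 fold change was 0.25 without TG 8 and 0.26 without WT 3, each with an unadjusted p of 0.153 (limma). Hmox1, heme oxygenase, had 3984, 4441, 1315 and 495 normalized reads in TG 2, TG 5, TG 6 and TG 8, against 418 to 788 in WT, with TG 8 inside the WT range. Slc7a11, a subunit of the cystine transporter, was 0.59 without TG 6 and 0.51 in males only. Hmox1 passed in 1 of 22 alternatives, males only (2.69, adjusted p = 0.00038, limma). That fit held 3 WT libraries and 2 TG libraries, TG 2 and TG 5, which had the highest Hmox1 values.

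**Figure D4:**
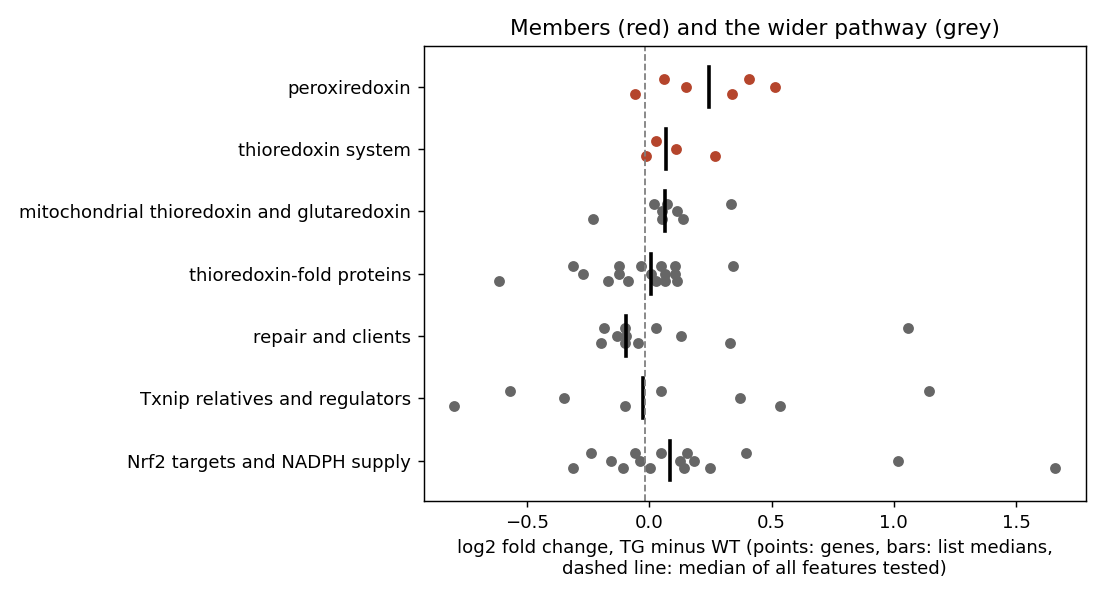
Log2 fold changes, TG minus WT, of the members (red) and of the 60 genes of 5 pathway lists (grey), with each list's median (black bar) and the median of all features tested (dashed line). The peroxiredoxins have a median of 0.24 and the thioredoxin system genes 0.07, and the pathway lists have medians from -0.10 to 0.09.

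The genes whose profile over the 8 libraries was most like that of Prdx6, among 12619 with a symbol and a mean of at least 50, were Txnl4b (Pearson's r = 0.96), Nkain1 (0.96), Snx1 (0.95), Fcho1 (0.95) and Htra1 (0.94), a secreted serine protease. They share with Prdx6 the split between the groups, with log2 fold changes of 0.32 to 0.47. For Txnip the closest were Pdk2 (0.96), a kinase that restrains pyruvate dehydrogenase, Xpc (0.96), Sfxn5 (0.96), Arhgap27 (0.95) and March4 (0.94), and their log2 fold changes were -0.25 to 0.05. These coefficients were picked as the highest of many, and carry no test.

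**Figure D5:**
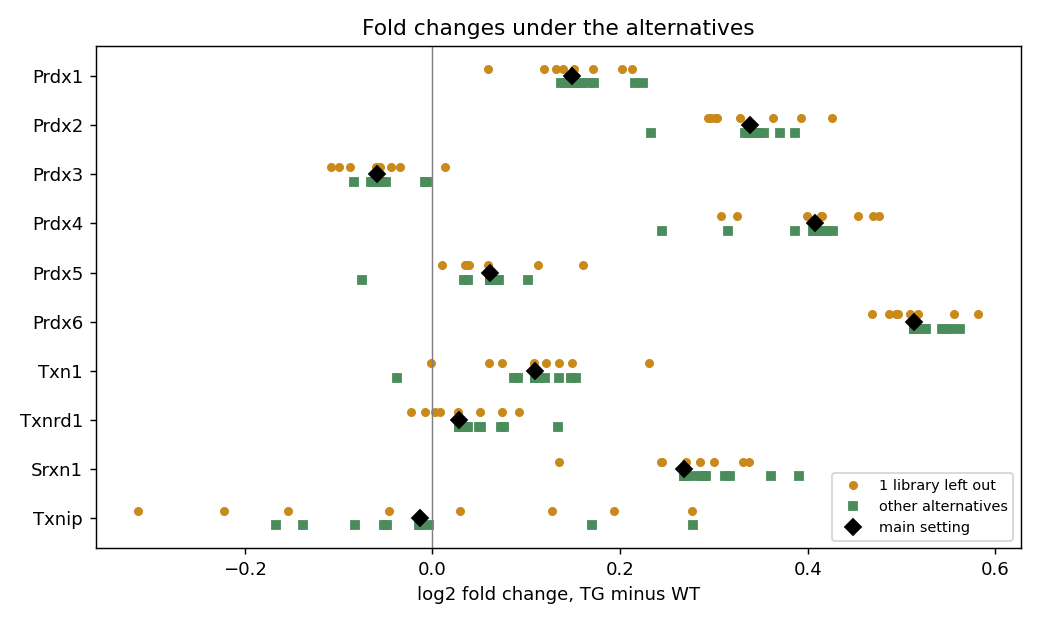
Log2 fold changes, TG minus WT, of the 10 genes at the main setting (diamonds), with 1 library left out (circles) and under the other alternatives (squares). Prdx6 stays between 0.47 and 0.58 under all 22 alternatives, whereas the values of Txnip fall on both sides of 0.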

How the data were processed

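RNA of 8 detached retinas was sequenced from stranded, polyA-selected libraries, per the labels' protocols. The deposited signal is a read count per gene feature that the authors divided by a DESeq2 size factor for each library, per the file headers. Coordinates are mm10. The submitters' processing notes list STAR 2.4.0, DESeq2 and quality tools. No source used here states the counting tool, its use of strand, or which annotation release it counted. Each column held whole multiples of the worth of 1 read (100% of values within 0.01 reads), and the count tests used those recovered reads.

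The 10 members and the gene lists were chosen with earlier results of these data known. Groups were compared in R 4.3.3 with limma 3.58.1 and a variance trend, on log2(value + 1), a scale that understates changes of low genes. Features needed a mean of 10 or more, and p-values were adjusted by Benjamini-Hochberg over all of those. The SE of a log2 fold change had a median of 0.16 where the mean was 1000 or more. Alternatives were edgeR 4.0.16, DESeq2 1.42.0, other scalings, pseudocounts and filters, terms for eye or sex, fits of males alone, and libraries left out. The fit was tested on simulated data. The text names all members, the 3 genes of each pathway list with the smallest p, and the 5 genes most like Prdx6 and most like Txnip by Pearson's r. Of the marker lists, those for ganglion cells summed to 72395 to 129685 normalized reads in TG and 84688 to 130991 in WT, with 4 of 8 higher in TG. Endothelial markers summed to 2881 to 5353 in TG and 3319 to 8951 in WT, with 0 of 6 higher. Merged exon lengths came from GENCODE M21.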

Additional observations from a re-analysis of the deposited data

Results flagged for a closer look

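Among 50 groups of 4 libraries, for the 25 genes tested, 2 values stood apart from the other 3 of their group by Dixon's criterion, where chance gives about 1 in 20 groups. Slc7a11 had 899 normalized reads in TG 6, against 241 to 324 in the other TG libraries. Msra had 716 normalized reads in WT 7, against 411 to 429 in the other WT libraries. No value of the 10 peroxiredoxin and thioredoxin system genes was flagged, and none of the 10 had a sex by genotype term with an adjusted p under 0.05 (limma; 0 at an unadjusted p under 0.05).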

How the results depend on the processing

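None of the 10 genes was called under any of 22 alternatives, and the lowest adjusted p was 0.0559 (Prdx6, DESeq2). Prdx1, Prdx2, Prdx4, Prdx6 and Srxn1 kept a positive log2 fold change in all of them. In males only the sign turned for Prdx5 (-0.075), Txn1 (-0.037) and Txnip (0.28), and for Txnip also without WT 3 and TG 6 together (0.17). Without 1 library the log2 fold change was -0.11 to 0.014 for Prdx3, 0.011 to 0.16 for Prdx5, -0.0017 to 0.23 for Txn1, -0.023 to 0.093 for Txnrd1, -0.31 to 0.28 for Txnip and -1.55 to 0.056 for Mlxipl. The number of genes above 0, a count repeated under the same alternatives after the data had been seen, was 7 to 9. Over all features, 0 were higher in TG under each of these settings: sex as a term, no variance trend, a minimum mean of 50, no filter on low values, and a pseudocount of 0.5. The number higher was 9 with DESeq2, and 0 to 2 without 1 library. The number lower was 3 in males only, 7 with DESeq2, and 1 to 2 without 1 library. The cause was not tested. No paired analysis was possible because the labels match no TG retina with a WT retina. Txnip, at 65 to 243 reads a library, is the member that depth limits most.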
